A study of Mus musculus with 4 samples.

Results

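The genes described here act in cyclic AMP and G protein signalling. They comprise phosphodiesterases (Pde), adenylyl cyclases (Adcy), catalytic and regulatory protein kinase A subunits (Prkac, Prkar) and regulators of G protein signalling (Rgs). They were chosen by symbol among protein coding genes, with Rgs9 left out; the rule itself uses no measured value, although it was set with earlier results of these data known. GENCODE M21 annotates 61 such genes, and 47 of them were listed in at least 1 of the deposited tables: 24 among 7799 protein coding genes of the stress table and 42 among 10329 of the virus table. Each of 4 groups gave 1 RNA sequencing library, made from prelimbic cortex, part of the medial prefrontal cortex, of 8-week-old C57BL/6 mice. The control and susceptible libraries come from a chronic social defeat experiment, where mice that avoid contact after repeated attacks count as susceptible; both carry the same stress label, so the labels do not say what the control mice went through. The AAV-GFP and AAV-CDYL libraries come from mice in which an adeno-associated virus expressed green fluorescent protein or CDYL, a chromatin corepressor. The promoter of the virus, the cells it entered and whether a library holds 1 mouse or a pool were not given in the sources used here. With 1 library per group no difference below has a replicate check, no test was run, and "higher" and "lower" describe these libraries only.

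Adenylyl cyclases at the membrane make cyclic AMP when a receptor activates the stimulatory G protein, and phosphodiesterases break cyclic AMP or cyclic GMP down. Cyclic AMP releases the catalytic subunits of protein kinase A from its regulatory subunits, and the freed kinase phosphorylates ion channels, synaptic proteins and the transcription factor CREB, which binds the cyclic AMP response element. RGS proteins speed the return of G protein alpha subunits to the inactive state, which shortens signals of many neurotransmitter receptors. In prefrontal cortex this cascade is known as a regulator of neuronal firing and working memory.

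Abundant members such as Rgs4, Adcy1, Pde1a and Prkar1b were lower in the AAV-CDYL library than in the AAV-GFP library, and a set of mostly low members led by Rgs1, Rgs10 and Pde8a was higher. FPKM is the number of fragments for each kilobase of a transcript, scaled by library. Of the 33 members that reached FPKM 1 in a library of the virus pair, 10 were lower and 7 higher by at least 1.5-fold on the log2(FPKM + 1) scale, together 51.5%. Among the 7, Rgs1 passed the floor only through AAV-CDYL, which fixed its direction. With a floor of FPKM 1 in the AAV-GFP library 10 members were lower and 6 higher. Over all 6947 protein coding genes passing the same floor, 14.4% were lower and 29.3% higher, together 43.6%. By sign alone 24 of the 33 lay below AAV-GFP, or 72.7%, beside 48.3% of all genes. Susceptible and control libraries differed by less: of 15 members passing the floor, 1 (Pde6h) was lower and 0 were higher, where 9.75% and 16.7% of 4462 protein coding genes were, together 26.5%. By sign 9 of the 15 lay below control, beside 49.1% of all genes. The deposited tables hold no gene above 0 in both libraries whose log2 ratio was smaller than 0.32 in size, so a member without a row carries no value here and is not thereby shown to be alike.

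Promoters of members that differed are shown because CREB, the transcription factor downstream of this cascade, acts through the response element TGACGTCA. A 5-base core that opens this element, TGACG, was searched too; it reads as CGTCA when it lies on the other strand, and every full element contains it. RefSeq promoter windows (build GRCm38.p6, 250 bases before to 50 after a start) were matched for 46 of the 61 members, with 89 windows. The core was found on either strand in 21 of these windows, or 23.6%, beside 20.8% of all 32851 windows of that length. The full element was found in 2 windows, both of Prkar1a, beside 1.79% of all windows. Among members lower with AAV-CDYL 6 of 19 windows held the core, and among those higher 2 of 8. These are 31.6% and 25% of few windows. Counted by gene, 19 of 46 members (41.3%), 6 of 9 lower members (66.7%) and 2 of 5 higher members held the core in any window, beside 23% of 27025 genes; members have more windows per gene (89 for 46) than all genes (32851 for 27025). A match is a run of letters, not a bound site. The core with its flanks is given here, 5′ to 3′ in the gene's direction with the core in capitals, for the members past the size rule whose printed stretch lies wholly upstream of a RefSeq start. Of the matches of Rgs4 the one nearer to its start is shown.
Rgs4, lower, chr1:169747767-169747795, minus strand: gcatccctgatgCGTCAgttgtttcttcc
Pde1a, lower, chr2:80039052-80039080, minus strand: gtaacttcagccCGTCAttcctcagtaat
Pde4a, lower, chr9:21184039-21184067, plus strand: ggcacagctcgaCGTCAggctggggagga
Adcy9, lower, chr16:4420506-4420534, minus strand: cggacccggcggTGACGtgcgcgggccgc
Prkar1b, lower, chr5:139150034-139150062, minus strand: tagagggcggagTGACGggcaggaggacg
Adcy7, higher, chr8:88282952-88282980, plus strand: tgatcatagagcCGTCAggggggtggggc
Pde8a, higher, chr7:81213169-81213197, plus strand: gctgctttgcatTGACGccagcagccgct

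The spacing of low FPKM values gave an effective depth between 14300000 fragments, in control, and 23800000, in AAV-CDYL, with the other libraries at 22600000 and more. A transcript of 2 kb at FPKM 1 was then backed by about 28.6 to 47.6 fragments. Cdyl stood at 1.98, 2.54, 2.68 and 1052 FPKM in control, susceptible, AAV-GFP and AAV-CDYL. Neuron markers were abundant: the 5 of 7 listed in the stress table summed to 2173 and 1582 FPKM in control and susceptible. The list of striatal neuron markers had 8 of its 9 members passing the floor higher in the susceptible library and 3 of 6 higher with AAV-CDYL. Over all protein coding genes passing the floor 16.7% were higher in the stress pair and 29.3% in the virus pair. By sign Tac1 lay below its reference in both pairs, and Foxp1 lay below AAV-GFP. The sum of the striatal list was 77.7 FPKM in control and 133 in susceptible, and 73.1 and 68.9 with AAV-GFP and AAV-CDYL. Adora2a and Drd2 passed the floor in each pair only through the library where they were higher. So did Gpr6 in the stress pair, and the floor thus fixed these directions. The part of striatal RNA in the members' values was not tested. Of the members past the size rule in the virus pair, 10 had no row in the stress table: Pde1a, Pde3b, Pde4a, Pde10a, Adcy7, Adcy9, Prkar2a, Rgs3, Rgs10 and Rgs14. Their values below are therefore of the virus pair only.

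The levels set the scale for what follows, since FPKM is already per transcript length. Prkar1b, the brain-enriched type I regulatory subunit of protein kinase A, had the highest level of the listed members in each library, from 448 FPKM with AAV-CDYL to 734 in control. The catalytic subunit gene Prkacb stood at 195 FPKM in AAV-GFP and 140 in AAV-CDYL. Among the RGS genes Rgs4 led, among the cyclases Adcy1, and among the phosphodiesterases listed in the virus table Pde2a (130 and 90.5 FPKM) and Pde1a (114 and 72.2). For the 10 members passing the floor in both tables, the AAV-GFP level divided by the control level lay between 0.894 and 1.35, although the tables were normalized separately. The reference libraries of the pairs thus held these genes at like levels, as the plot of levels by library shows.

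**Figure D1:**
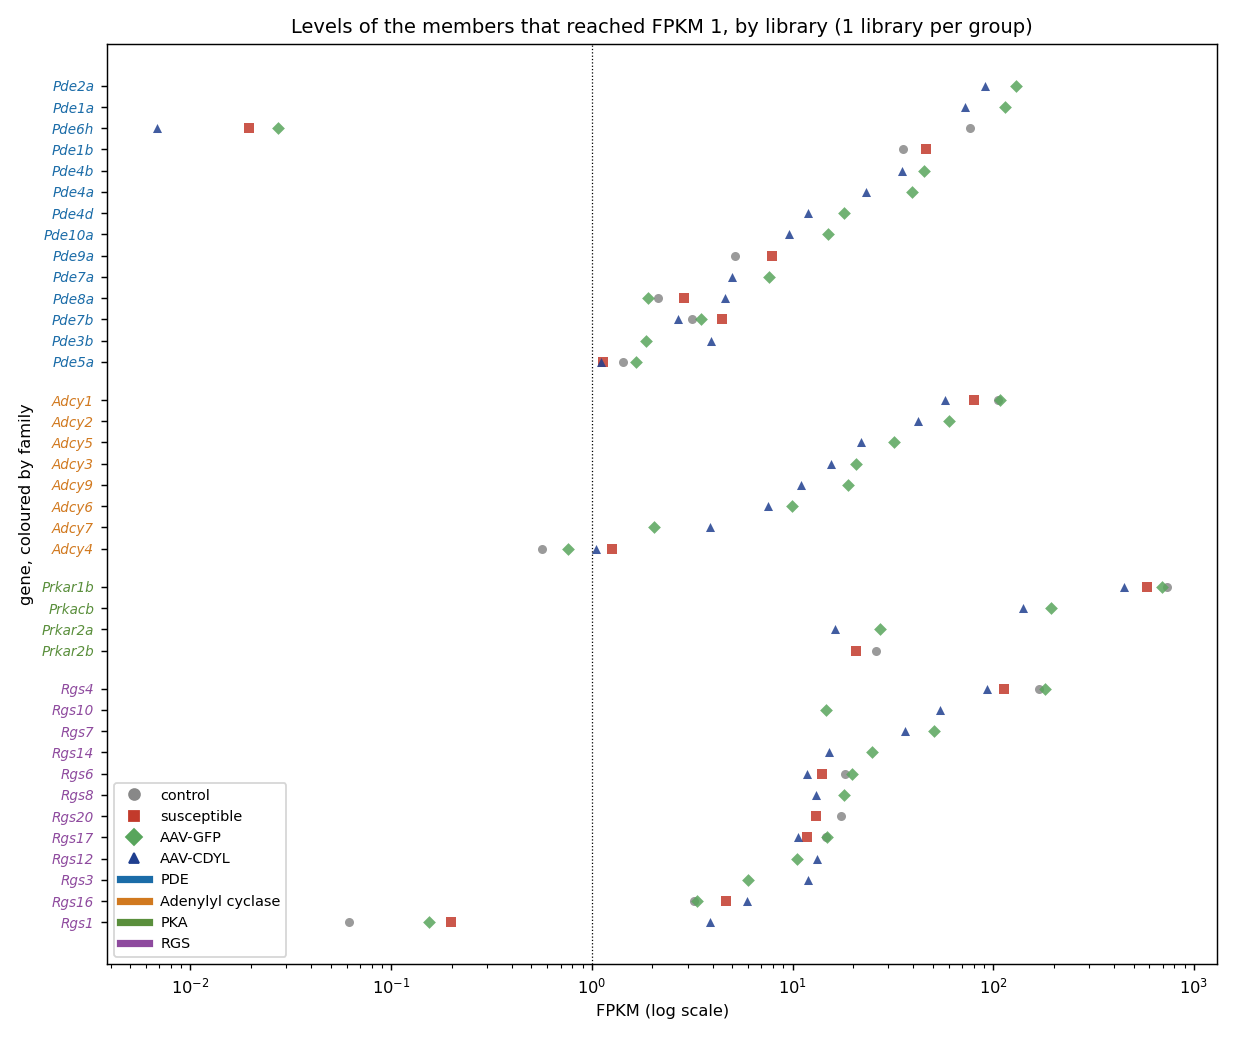
FPKM (log axis) of the 38 members that passed the floor in either pair, 1 point per library, gene names coloured by family; no error bars, since each group has 1 library. AAV-CDYL (triangles) lies left of AAV-GFP (diamonds) for most members above 10 FPKM and right of it for Rgs10 and several low members; Pde6h lies far above its other values in control only.

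Adenylyl cyclases lay below AAV-GFP in the AAV-CDYL library for 6 of the 8 members passing the floor, 2 of them past 1.5-fold, and 1 was higher past it. Over all genes 48.3% lay below AAV-GFP, 14.4% were lower past the rule and 29.3% higher. Adcy1, a calcium and calmodulin stimulated cyclase of cortical neurons (chromosome 11, 7063489 to 7178506, mm10), stood at 109 FPKM in the AAV-GFP library and 57.8 in the AAV-CDYL library, 1.88-fold lower. Its control and susceptible values were 105 and 80.3, a difference of -0.39 within the size rule. The susceptible and AAV-CDYL libraries thus both lay under their reference for Adcy1.

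Adcy9, a widely expressed cyclase that forskolin hardly activates, stood at 19.0 and 11.0 FPKM in AAV-GFP and AAV-CDYL. A processed pseudogene in the locus of Adcy9 was listed at 0 and 1.88. Adcy7, a cyclase known from blood cells and microglia (chromosome 8, 88272403 to 88329962), went the other way, at 2.04 and 3.87 FPKM. If all fragments fell on its longest coding transcript, these are about 274 and 548 fragments, which gives a ratio of 1.90 with a 95% interval of 1.64 to 2.21 that covers counting error only. The spread between animals is unknown.

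The other cyclases stayed within the size rule. Adcy2, which G protein beta and gamma subunits stimulate, stood at 60.3 and 42.1 FPKM, and Adcy5, the main striatal cyclase, at 32.1 and 21.9. Adcy3, known from olfactory neurons and primary cilia, stood at 20.8 and 15.5; Cenpo, on the other strand, covers 22.1% of its exonic bases. Adcy6, a calcium-inhibited relative of Adcy5, stood at 9.95 and 7.55. All 4 lay below AAV-GFP by less than 1.5-fold on the log2(FPKM + 1) scale. Adcy4, low in every library, stood at 0.561 and 1.26 in control and susceptible and at 0.760 and 1.05 in the virus pair. Adcy10, the soluble bicarbonate-sensing cyclase, was at or under 0.0681 FPKM in all 4 libraries.

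Protein kinase A subunits lay below AAV-GFP with AAV-CDYL for all 3 members listed in the virus table, 2 of them past the size rule. Over all genes 48.3% lay below AAV-GFP and 14.4% were lower past the rule. At FPKM 10 or more in AAV-GFP, where all 3 stood, 24.4% of genes were lower past the rule and the median difference was -0.42. Prkar1b (chromosome 5, 139017306 to 139150001) stood at 697 and 448 FPKM, 1.55-fold lower, and at 734 and 586 in control and susceptible. Its locus also holds Dnaaf5, at 3.24 and 4.57 FPKM in the virus pair. Prkar2a, a type II regulatory subunit (chromosome 9, 108689314 to 108750436), stood at 27.1 and 16.3, 1.66-fold lower. Prkar2b, a type II subunit known from brain and fat, was listed in the stress table only, at 26.0 in control and 20.7 in susceptible. Every subunit with a row lay below its reference library, while Prkaca and Prkar1a had no row in either table.

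Phosphodiesterases specific for cyclic AMP lay mostly below AAV-GFP with AAV-CDYL, with Pde4a past the rule, while Pde8a was higher. Pde4a, a rolipram-sensitive enzyme (chromosome 9, 21165714 to 21213248), gave 39.6 FPKM in AAV-GFP and 23.1 in AAV-CDYL, 1.71-fold lower. Its relatives Pde4d (18.1 and 11.9) and Pde4b (45.2 and 35.3) lay on the same side without passing the size rule. Pde4d differed by -0.57, just inside the limit, and Pde10a by -0.59, just past it. Pde7a stood at 7.64 and 4.99, and Pde7b at 3.49 and 2.69.

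Pde8a, a high-affinity cyclic AMP phosphodiesterase (chromosome 7, 81213596 to 81334533), gave 1.91 FPKM in AAV-GFP and 4.59 in AAV-CDYL, 2.40-fold higher. Its stress pair values were 2.14 in control and 2.89 in susceptible. Pde8a was thus above its reference in both pairs and past the rule in the virus pair. Pde7b, by contrast, was 3.17 in control and 4.47 in susceptible, above its reference in 1 pair and below it in the other.

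Phosphodiesterases that hydrolyse both cyclic nucleotides had 2 members lower and 1 higher with AAV-CDYL among 4 passing the floor. The shares of all genes were 14.4% lower and 29.3% higher. Pde1a, activated by calcium and calmodulin (chromosome 2, 79834453 to 80129458), was 1.58-fold lower. Pde10a, best known from striatal medium spiny neurons (chromosome 17, 8525372 to 8986648), stood at 15.0 and 9.58 FPKM, 1.56-fold lower. Pde3b, a cyclic GMP inhibited enzyme known from insulin signalling in fat cells (chromosome 7, 114415281 to 114539251), stood at 1.87 and 3.93, 2.10-fold higher. Pde2a, which cyclic GMP stimulates, differed by -0.52; Gm45837, on the same strand, covers 64.3% of its exonic bases, so its fragments cannot be assigned with certainty.

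The only member of that class passing the floor in the stress pair was Pde1b, a calmodulin-dependent enzyme rich in striatum, at 35.3 FPKM in control and 46.2 in susceptible. Of the cyclic GMP specific enzymes, Pde9a stood at 5.16 and 7.90, a difference of 0.53. Pde5a, the target of sildenafil, stood at 1.42 and 1.14 in control and susceptible and at 1.65 and 1.11 with AAV-GFP and AAV-CDYL. None of these 3 passed the size rule in a table that lists it. Pde1c, Pde3a, Pde4c, Pde6b, Pde6c and Pde11a were under FPKM 1 in each library that lists them.

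Pde6h was the only member past the size rule in the stress pair, and its value rests on the control library. It encodes the inhibitory gamma subunit of the cone photoreceptor phosphodiesterase, and stood at 76.8 FPKM in control, 0.0195 in susceptible, 0.0272 with AAV-GFP and 0.00683 with AAV-CDYL. The control value is thus high and the other 3 are close to 0. Both tables place Pde6h in 1 Cuffdiff locus with Arhgdib, an inhibitor of small GTPases in blood cells, which stood at 3.97, 11.0, 4.32 and 35.0 FPKM in the same order. The annotated transcript Pde6h-204 (chromosome 6, 136923832 to 136963238, plus strand) is 392 bases long, and 136 of them, or 34.7%, lie in Arhgdib exons on the minus strand; the other 3 Pde6h transcripts share none.

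The library kit does not mark strand, so reads of overlapping exons on opposite strands cannot be told apart. Photoreceptor markers were near 0: of the 10 markers 7 were listed in the stress table, none reached FPKM 1, and they summed to 1.40 in control and 1.10 in susceptible. In the authors' deposited table the difference of Pde6h has p = 0.334. Whether the control value comes from fragments of Arhgdib was not tested. Without members in a shared locus 0 members passed the size rule in the stress pair.

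**Figure D2:**
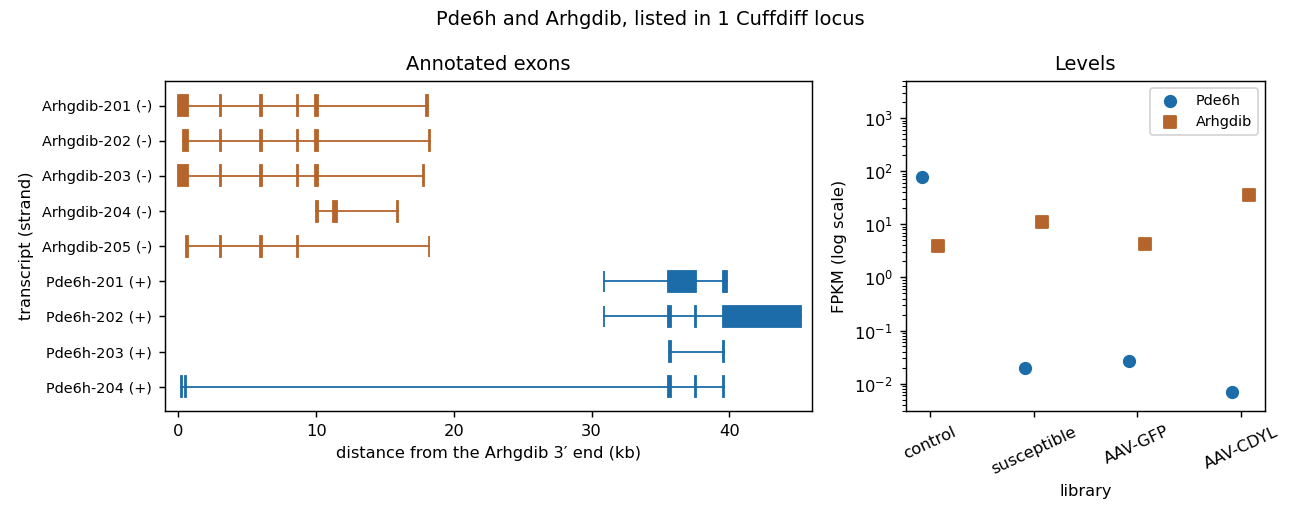
Left, annotated exons (boxes) of Arhgdib and Pde6h transcripts by distance from the Arhgdib 3′ end in kb, with strand. Right, FPKM (log axis) of both genes, 1 point per library; the first exons of Pde6h-204 lie within the last exon of Arhgdib, and only the control library lists Pde6h above Arhgdib (76.8 against 3.97).

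RGS genes held the widest range of differences with AAV-CDYL among the families, from 1.94-fold lower to 25.1-fold higher. Of 11 passing the floor 3 were lower and 4 higher, beside 14.4% and 29.3% of all genes. The upper end is Rgs1, which passed the floor only through AAV-CDYL, and the next was Rgs10, 3.72-fold higher. Rgs4, a regulator of Gi and Gq signalling that is abundant in cortical neurons (chromosome 1, 169741477 to 169747642), gave 181 FPKM in AAV-GFP and 93.1 in AAV-CDYL. Control gave 170 and susceptible 114, and the difference of -0.58 lay just inside the limit. In the authors' deposited table Rgs4 has p = 0.0526 in the stress pair and 0.0767 in the virus pair, and the former is the lowest p of any listed member in that pair. Rgs4 was therefore low in the susceptible and AAV-CDYL libraries beside their references.

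Rgs6 and Rgs7 belong to the R7 subfamily, whose proteins act on Gi and Go together with the beta subunit Gnb5, and both lay below AAV-GFP. Rgs9, an R7 gene that is no member here but stands in the striatal list, lay above it, at 6.85 and 9.25 FPKM, and was higher in susceptible than in control, at 10.4 against 5.88. Rgs6 (chromosome 12, 82588292 to 83162056) stood at 19.7 and 11.9 FPKM, 1.67-fold lower, in a locus of 3 listed genes. Rgs7 stood at 50.5 and 36.3 and did not pass the rule. Rgs14, a member of the R12 subfamily that also binds Ras and Rap and limits plasticity in hippocampal neurons (chromosome 13, 55369732 to 55384687), stood at 24.8 and 15.1, 1.64-fold lower. Rgs8 (18.1 and 13.1) and Rgs17 (14.9 and 10.7) lay below AAV-GFP within the rule, as did Rgs17 (14.7 and 11.7), Rgs20 (17.3 and 13.1) and Rgs6 (18.3 and 14.0) below control.

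The higher RGS genes include those known from immune cells. Rgs1, which dampens chemokine receptor signalling in B and T cells (chromosome 1, 144242296 to 144249242), gave 0.155 FPKM in AAV-GFP and 3.90 in AAV-CDYL. On its longest coding transcript this is about 13 and 356 fragments, a ratio of 25.1 with a counting interval of 14.6 to 47.0. In control and susceptible Rgs1 stood at 0.0613 and 0.198, under the floor. Rgs1 entered the virus comparison only through its AAV-CDYL value, so the floor fixed its direction but not its size.

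Rgs10, a regulator of Gi signalling that is highly expressed in microglia (chromosome 7, 128373621 to 128418758), gave 14.6 FPKM in AAV-GFP and 54.5 in AAV-CDYL, 3.72-fold higher. It was the only member at 10 FPKM or more in AAV-GFP that was higher past the rule. Rgs3 stood at 5.97 and 11.9, a difference of 0.89, and Rgs16, an inducible member of the same R4 subfamily, at 3.33 and 5.96, 1.79-fold higher. Rgs16 was also above its reference in the stress pair, at 3.22 and 4.67. Rgs12 differed by 0.30, and Rgs18 and Rgs22 were under FPKM 1 in all libraries.

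**Figure D3:**
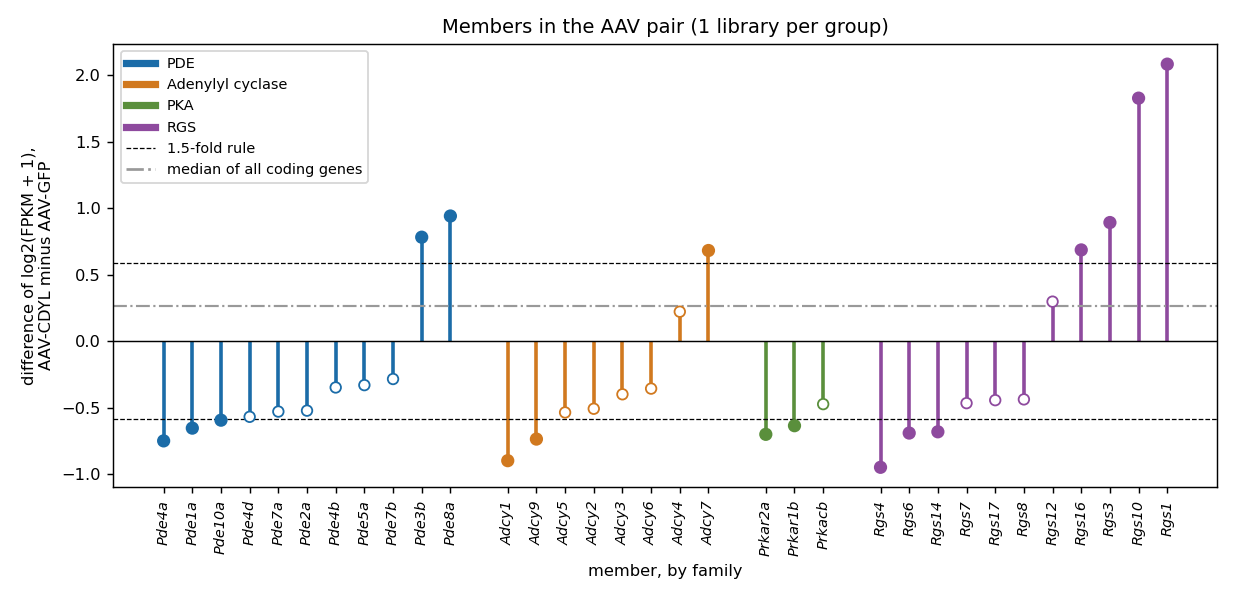
Difference of log2(FPKM + 1), AAV-CDYL minus AAV-GFP, for the 33 members passing the floor, by family; filled points pass the 1.5-fold rule (dashed lines), open points do not, and each point is 1 library against 1. The 10 filled points below 0 lie between Rgs4 (-0.95) and Pde10a (-0.59), and the 7 above 0 reach 2.08 for Rgs1, which passed the floor only through AAV-CDYL. The grey dash-dotted line is the median of all protein coding genes passing the floor, 0.26, at the edge of the gap around 0 that the listing leaves.

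The median difference of the 33 members was -0.47, beside 0.26 for all protein coding genes passing the floor. The latter lies at the edge of the gap around 0 that the listing leaves, with 3590 genes above and 3357 below AAV-GFP. At FPKM 1 or more in AAV-GFP the medians were -0.47 for members and -0.33 for all genes. The direction of a member's difference went with its level in the AAV-GFP library. All 10 lower members stood at 15.0 FPKM or more there and differed by 1.55-fold to 1.94-fold, while 6 of the 7 higher members stood under 10. At 10 FPKM or more in AAV-GFP, 10 of 22 members were lower, or 45.5%, beside 24.4% of 3203 protein coding genes, and 1 was higher, or 4.55%, beside 10.8%. The median difference of these 22 was -0.55, beside -0.42 for all genes at that level. Under 10 FPKM, 6 of 11 members were higher, beside 45.1% of 3744 genes, and 0 lower, beside 5.74%. The split by level was chosen after the values were seen. All genes showed a tilt of the same direction with level. Part of it was fixed in advance, since the AAV-GFP level is itself a term of the difference. Genes under FPKM 1 in AAV-GFP passed the floor only through AAV-CDYL, which fixed their direction. They number 994 of the 3744, with 79.9% higher and 0% lower, and include the members Rgs1 and Adcy4.

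**Figure D4:**
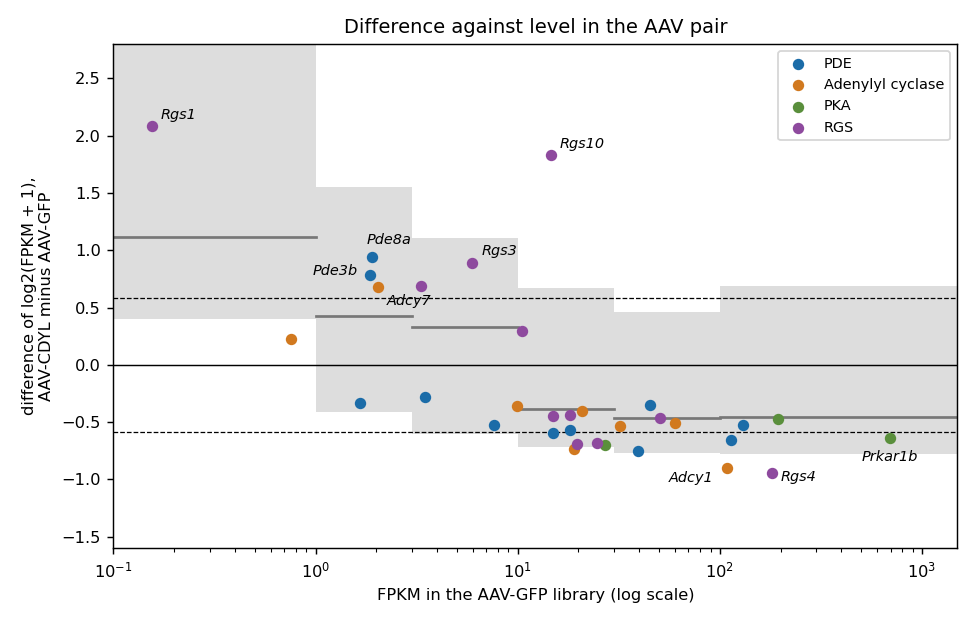
Difference of log2(FPKM + 1), AAV-CDYL minus AAV-GFP, against FPKM in AAV-GFP (log axis), for the members, 1 library per group; grey bands span the 10th to 90th percentile and grey lines the median of all protein coding genes in the same level range, dashed lines the 1.5-fold rule. Most members above 10 FPKM lie near or below the grey median, with Rgs4, Adcy1 and Adcy9 below the band and Rgs10 far above it.

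Markers of cell types moved alongside in the virus pair, where 14.4% of all protein coding genes passing the floor were lower and 29.3% higher. Neuron markers with a value numbered 5 of 7; 3 were lower, none was higher, their median was -0.59 and their sum was 3084 FPKM in AAV-GFP and 2002 in AAV-CDYL. Microglia markers were higher for 8 of 9, their sum being 186 and 1165. The lymphocyte list summed to 1.07 and 40.8; the 9 of its markers that passed the floor did so only through AAV-CDYL, which fixed their direction, and Cd3d, Cd3g, Cd79a, Cd8a and Nkg7 were among those at 0 with AAV-GFP. Oligodendrocyte markers were higher for all 10, with a sum of 656 and 2552. Astrocyte markers were higher for 5 of 6, among them Gfap at 5.85 and 386, in a locus of 7 listed genes, and lower for Gjb6 at 44.7 and 19.5. Endothelial markers were higher for 3 of 5, with a sum of 71.1 and 156. In bulk tissue, fewer cells of a type and less RNA per cell cannot be told apart.

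When each difference was taken relative to the median of the neuron markers, an alternative added after the values were seen, 0 members were lower and 9 higher. The lower members therefore lay within 1.5-fold of those neuron markers, of which only the 5 that themselves differed are listed. The part of microglia and lymphocytes in Rgs10, Rgs1 and Adcy7 was not tested. The other scalings also moved the split: centring on the median of listed protein coding genes (0.26) gave 4 higher and 23 lower, and scaling to a common upper quartile, a factor of 0.14 on the log2 scale, gave 7 higher and 4 lower. The median of 0.26 lies at the edge of the gap around 0 in the listing and is no measure of a typical gene's shift. The authors' deposited table gives 2 of the 33 members a p under 0.05, or 6.06%, beside 9.24% of all genes: Rgs10 with p = 0.01545 and Rgs1 with p = 0.0368. No member has q under 0.05 there, beside 1.21% of all genes. For the stress pair the authors' deposited table gives 0 of 15 members a p under 0.05, beside 9.55% of all genes, and 0 a q under 0.05, beside 0.762%.

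In the stress pair the 14 members without Pde6h that passed the floor lay between -0.58 and 0.53. The median over all 15 was -0.30, beside 0.21 for all protein coding genes passing the floor; it turned to 0.14 without a floor and to 0.036 without members in a shared locus. The 0.21 lies at the edge of the gap around 0 that the listing leaves. At a control level of at least FPKM 1 the median was -0.31 for members and -0.30 for all. Rgs4, Adcy1, Prkar1b, Prkar2b, Rgs6, Rgs17, Rgs20 and Pde5a were below control, beside Pde6h. Those above control were Pde9a, Adcy4, Rgs16, Pde7b, Pde1b and Pde8a. Over all protein coding genes passing the floor 9.75% were lower and 16.7% higher. Of the listed neuron markers 1 of 5 passed the rule, as lower, and their median was -0.45. Oligodendrocyte markers were higher for 9 of 10 and neutrophil markers for 5 of 5, the latter summing to 78.1 in control and 319 in susceptible. The neutrophil marker Camp passed the floor only through susceptible, which fixed its direction. Microglia markers were higher for 0 and lower for 2 of 6, with a median of -0.40. The lower ones were P2ry12 (25.4 and 7.85, in a locus of 6 listed genes) and Trem2 (18.4 and 6.28). By sign 2 microglia markers lay above control and 4 below. Astrocyte markers were higher for 3 of 6, with Gfap at 2.92 and 31.0 in a locus of 4 listed genes, and endothelial markers for 4 of 6, with Vwf at 3.98 and 45.3. Their part in the members' values was not tested.

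For 10 members with FPKM of at least 1 in both pairs the differences could be set side by side, and the pairs share no library. The sign was the same for 9 of the 10, or 90%, beside 84.6% of 2734 protein coding genes passing the floor in both, so the share is near that of genes at large. Adcy4 passed the floor in each pair only through the library where it was higher, which fixed its sign in both. Below their reference in both were 6, beside 38% of those genes. Rgs4 (-0.58 in susceptible, -0.95 with AAV-CDYL) and Adcy1 (-0.39 and -0.90) were below their reference in both pairs. So were Rgs6 (-0.37 and -0.69) and Prkar1b (-0.32 and -0.64). Each of these genes had the larger difference under AAV-CDYL. Pde8a (0.31 and 0.94) and Rgs16 (0.42 and 0.69) were above their reference in both. Pde7b differed in sign (0.39 and -0.28).

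**Figure D5:**
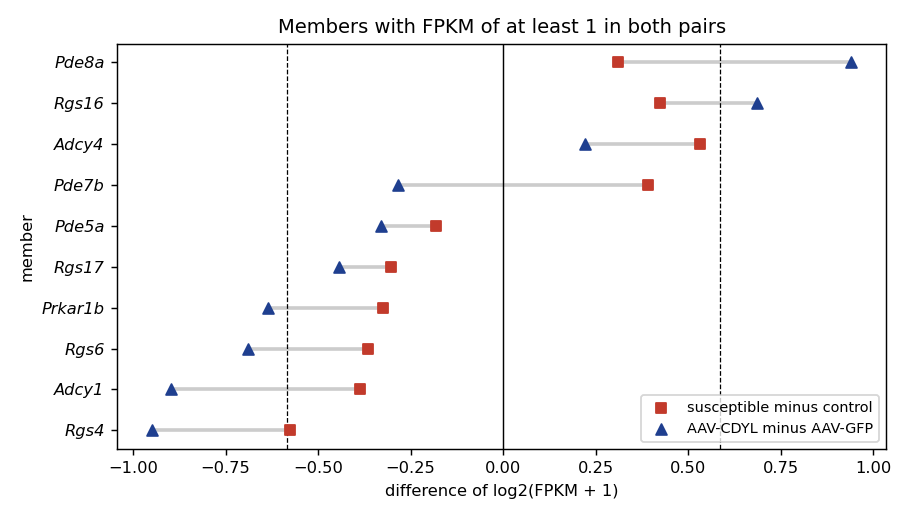
Difference of log2(FPKM + 1) of the 10 members with FPKM of at least 1 in both pairs, susceptible minus control (squares) and AAV-CDYL minus AAV-GFP (triangles), 1 library per group; dashed lines mark 1.5-fold. Rgs4, Adcy1, Rgs6 and Prkar1b pass the left line only with AAV-CDYL, and Pde7b alone has points on both sides of 0.

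The rest of the cascade, taken from lists of related genes, was mixed with AAV-CDYL. Over all protein coding genes passing the floor 14.4% were lower and 29.3% higher, and the counts below stand beside these shares. In the list of guanylyl cyclases, which make cyclic GMP, and natriuretic peptide receptors 4 of 6 were lower and 1 higher; 1 of the lower, Npr3 (4.55 and 2.51 FPKM), is a clearance receptor without cyclase activity. Gucy1a2 stood at 9.10 and 4.74 and Gucy1a3 at 28.1 and 15.7, both subunits of the nitric oxide receptor, while the natriuretic peptide receptor Npr1 stood at 0.174 and 1.25. Npr1 passed the floor only through AAV-CDYL, which fixed its direction. Anchors and inhibitors of protein kinase A were lower for 4 of 8 and higher for 1, with Pkia, a peptide inhibitor of the kinase, at 183 and 108 and the anchor Akap11 at 45.6 and 29.0. Among receptor kinases, arrestins and other regulators 2 of 8 were lower and 1 higher. Rgs7bp, which anchors R7 proteins to the membrane, stood at 57.9 and 30.8, and Grk4, also lower, at 2.04 and 0.705. Gpsm3, a G protein modulator of immune cells, stood at 0.358 and 9.67. Grk4 passed the floor only through AAV-GFP and Gpsm3 only through AAV-CDYL, which fixed their directions. The partner Rgs7bp was thus low together with Rgs6.

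Of 10 G protein alpha subunits passing the floor 4 were higher and 0 lower, beside 29.3% and 14.4% of all genes; by sign 5 lay above AAV-GFP and 5 below, with a median of 0.03. Gnai2, an inhibitory subunit, stood at 104 and 174 FPKM, Gna13 at 10.6 and 19.2, and Gna15, a subunit of blood cells, at 1.25 and 3.74. Beta and gamma subunits were higher for 4 of 7 and lower for 2, led by Gngt2 at 1.54 and 12.6 in a locus of 4 listed genes. Gng8, among the higher, stood at 0.197 and 1.95 and passed the floor only through AAV-CDYL, which fixed its direction. Gnb5, which acts with R7 proteins, was among the lower, at 115 and 67.5. Among the other cyclic nucleotide effectors Rapgef3, a cyclic AMP activated exchange factor, was higher, at 6.84 and 11.0. In the CREB list 1 of 5 was higher, Atf1 at 4.95 and 11.1, and 0 were lower.

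Susceptible against control, 9.75% of all 4462 protein coding genes passing the floor were lower and 16.7% higher. The counts here stand beside these shares. Of 4 listed beta and gamma subunits 2 were lower, Gng2 at 243 FPKM in control and 112 in susceptible and Gng13 at 186 and 117. Pkia stood at 222 and 143 and Rgs7bp at 61.4 and 39.8, both lower past the rule as with AAV-CDYL. The anchor Akap2 was higher (2.08 and 5.84, in a locus of 4 listed genes), as was the receptor kinase gene Grk4 (0.665 and 1.79). With AAV-CDYL, by contrast, Grk4 was lower past the rule (2.04 and 0.705). Bves, a cyclic AMP binding membrane protein, was lower (1.16 and 0.120). Grk4 in each pair and Bves in the stress pair passed the floor only through the library where they were higher, which fixed their directions. Of 3 alpha subunits, 3 genes of the guanylyl cyclase list and 4 CREB list genes passing the floor none passed the size rule.

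No row was found in either table for 14 of the 61 members: Adcy8, Pde12, Pde6a, Pde6d, Pde6g, Pde8b, Prkaca, Prkar1a, Rgs2, Rgs5, Rgs11, Rgs13, Rgs19 and Rgs21. Pde12, taken by its symbol, is known to act on RNA ends in mitochondria and not on cyclic nucleotides. A further 23 were listed in the virus table only and 5 in the stress table only. Under FPKM 1 in both libraries of a pair were 9 of the 24 members listed in the stress table and 9 of the 42 listed in the virus table.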

How the data were processed

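Libraries were made with a NEBNext Ultra kit from 1 µg of total RNA, per the labels' protocols. The authors deposited 1 table per pair with FPKM for each library (fragments for each kilobase of a transcript, scaled by library), made with Cuffdiff on mm10, per the submitters' processing notes; aligner, annotation and versions were not given in the sources used here. Each deposited p-value or q-value sets 1 column against another and is quoted as the authors' own. The susceptible column, misspelled in its header, was matched to its title, and 0 sample columns stayed unmapped. Differences were taken within a table as log2(FPKM + 1), which understates those of low genes, for protein coding genes that reach FPKM 1 in a library of the table; the size rule was 1.5-fold. Ratios of single genes are of FPKM. The members, lists and rules were chosen with earlier results of these data known. Named were all members past the rule, those at FPKM of at least 20, and up to 3 genes per related list. Positions and overlaps are from GENCODE M21, promoters from RefSeq (GRCm38.p6), both of the authors' build. Depth came from transcripts of genes with 1 annotated transcript; 82.6% to 95.5% of low values lay within 0.15 of a whole number of fragments. The size rule was tested on simulated data with counting error only, where genes at FPKM 5 or more were changed by 2-fold. That test does not speak to the spread between animals, to changes of low genes or to missing rows. The tools were Python 3.11.15, pandas 2.3.3, numpy 2.4.6, matplotlib 3.10.9 and scipy 1.17.1. Alternatives were a pseudocount of 0.1 or 0.5, leaving out the floor, a floor of 5 FPKM, a 2-fold rule, 2 scalings and leaving out shared loci. Values of some single genes in the related and marker lists are not reported here.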

Additional observations from a re-analysis of the deposited data

How the results depend on the processing

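In the virus pair the 10 lower members became 0 with a 2-fold rule, 23 with centring on the median, 4 with upper quartile scaling and 0 with centring on neuron markers. The 7 higher members became 3 with a floor of 5 FPKM, 2 with a 2-fold rule, 4 with centring on the median, and 1 with a floor of 10 FPKM in AAV-GFP. The counts stayed within 1.5 times under the other settings. The median over members, -0.47, was -0.48 and -0.47 with pseudocounts of 0.1 and 0.5, -0.35 without a floor, -0.53 with a floor of 5, -0.73 centred on the median, -0.33 with upper quartile scaling and -0.47 without shared loci. In the stress pair the 0 higher members became 2 and 1 with pseudocounts of 0.1 and 0.5, 2 with upper quartile scaling and 6 centred on neuron markers, and the 1 lower became 4 centred on the median and 0 without shared loci. The median of -0.30 was -0.32 with either smaller pseudocount, -0.34 with a floor of 5, -0.52 centred on the median, -0.16 with upper quartile scaling, and turned to 0.14 without a floor and 0.036 without shared loci, where fewer or other members enter. The difference of Pde10a became 0.0007 centred on neuron markers; no other member past the rule changed sign under the pseudocounts and centrings tried. The settings on neuron markers and on the reference library were chosen after seeing the data. No leaving out of a replicate and no paired analysis was possible because each group has 1 library. Counting error is largest for members near the floor, and the spread between animals is unknown for all.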
